A study of Mus musculus with 4 samples.

Results

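Hypoxia-inducible factors (HIFs) are transcription factors that switch on genes when oxygen is scarce. The gene group described here holds the HIF subunits, the oxygen sensors that mark them for destruction, Vhl, and well-known targets of the pathway. Its 33 genes were chosen by function, from a list of symbols, after results of these same libraries were known: lower FPKM values and calls of Slc2a1, Egln3, Bnip3, Vegfa and Ddit4 had been seen. All 33 were found among the 15429 genes of the expression table. Because the list was drawn up with those values in view, the levels, fold changes and calls below describe the members and are not independent evidence that the pathway changed.

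The tested samples were 2 libraries of cells transfected with esiRNA (a pool of short RNAs made by enzyme digestion) against Tox4, which encodes a chromatin-associated HMG-box protein. They were set against 2 libraries of cells given Luc esiRNA, aimed at luciferase, as the control. All cells were of OE7, a mouse epiblast stem cell line taken from the post-implantation embryo and carrying an Oct4-Gip transgene. They were kept at passages 21 to 25, on fibronectin in N2B27 medium with Activin A at 20 ng/ml and Fgf2 at 12 ng/ml. Both groups went through the same transfection, per the labels, with 1000 ng esiRNA and 2 µl lipofectamine. Results come from this 1 line. Nothing in the labels ties the replicates to separate cultures, so p-values reflect only the scatter among these libraries, and that scatter may be technical. Oxygen tension and HIF protein were not measured here.

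When oxygen is plentiful, prolyl hydroxylases (Egln1, Egln2 and Egln3) hydroxylate the HIF alpha subunits (Hif1a, Epas1), and the Vhl ubiquitin ligase then sends these subunits to the proteasome. Hif1an, an asparaginyl hydroxylase, blocks their contact with coactivators. When oxygen falls, the alpha subunits persist, pair with Arnt, bind short DNA elements with the core ACGTG or GCGTG, and raise genes of glucose uptake, glycolysis, mitophagy, vessel growth and collagen modification. Egln1 and Egln3 are themselves HIF targets, which closes a feedback loop. Control acts largely on the alpha subunits' protein, so the mRNA levels reported here do not show how much protein was present.

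To show where the core element lies, 1 promoter window is printed for each role group whose members fell, namely the member with the largest fall among those with a single window that holds the core. Sequences are RefSeq windows on GRCm38.p6 of 300 bases, from 250 before to 50 after the annotated start, given 5′ to 3′ on the gene's strand, and capitals mark ACGTG or GCGTG read on either strand. The windows are Adm at chr7:110627407-110627706 (plus strand), Ankrd37 at chr8:45999801-46000100 (minus strand), Slc2a1 at chr4:119108495-119108794 (plus strand), Egln3 at chr12:54203825-54204124 (minus strand) and Bnip3 at chr7:138909457-138909756 (minus strand).
Adm: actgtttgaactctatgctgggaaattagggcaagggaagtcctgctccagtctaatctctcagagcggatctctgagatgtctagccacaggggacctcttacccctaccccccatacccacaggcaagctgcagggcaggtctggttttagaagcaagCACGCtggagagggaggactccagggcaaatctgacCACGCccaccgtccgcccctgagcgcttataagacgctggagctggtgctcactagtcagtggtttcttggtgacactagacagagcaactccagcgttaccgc
Ankrd37: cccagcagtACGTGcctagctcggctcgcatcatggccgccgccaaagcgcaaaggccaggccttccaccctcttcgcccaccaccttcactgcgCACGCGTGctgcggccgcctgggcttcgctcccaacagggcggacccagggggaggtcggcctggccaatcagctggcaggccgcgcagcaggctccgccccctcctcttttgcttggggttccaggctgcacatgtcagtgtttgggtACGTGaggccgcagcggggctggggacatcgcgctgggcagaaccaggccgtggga
Slc2a1: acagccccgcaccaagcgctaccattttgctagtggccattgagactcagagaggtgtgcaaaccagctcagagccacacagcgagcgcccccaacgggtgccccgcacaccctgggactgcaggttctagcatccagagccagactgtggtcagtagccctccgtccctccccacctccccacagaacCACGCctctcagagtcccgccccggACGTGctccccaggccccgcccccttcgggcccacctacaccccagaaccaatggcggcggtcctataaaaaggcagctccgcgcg
Egln3: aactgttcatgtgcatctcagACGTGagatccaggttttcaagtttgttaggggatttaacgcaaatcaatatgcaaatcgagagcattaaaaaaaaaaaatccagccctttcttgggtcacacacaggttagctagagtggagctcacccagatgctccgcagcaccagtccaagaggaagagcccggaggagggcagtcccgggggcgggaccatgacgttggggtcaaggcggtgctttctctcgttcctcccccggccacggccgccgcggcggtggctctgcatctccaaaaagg
Bnip3: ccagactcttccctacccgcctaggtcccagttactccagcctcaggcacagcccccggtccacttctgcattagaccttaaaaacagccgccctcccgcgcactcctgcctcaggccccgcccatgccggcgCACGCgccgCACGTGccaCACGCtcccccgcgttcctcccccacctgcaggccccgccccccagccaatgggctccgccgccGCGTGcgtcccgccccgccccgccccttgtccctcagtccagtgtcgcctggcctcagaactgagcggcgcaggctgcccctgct

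The Adm window held 2 matches, Ankrd37 held 4, Slc2a1 held 2, Egln3 held 1 and Bnip3 held 5, where CACGTG, whose strands each carry ACGTG, was counted on both. Of the 33 members, 27 had a window, and 8 of these had more than 1, for 39 windows in all. Windows of the same gene can overlap, as for Ak4 and Hilpda, and a match they share was counted in each. At least 1 match was found in 31 of the 39 windows (79.5%), against 43.8% of all 32851 windows in the RefSeq table, and at least 2 matches in 21 (53.8%), against 20.6%. The members' windows were also richer in G and C, with a median of 64.3%, against 52.7% over all windows, and the core itself is rich in G and C; the part of base composition in the match count was not tested. Among members that fell, 12 of 13 with a window held at least 1 match and 10 held at least 2. Among those that did not pass the threshold, 11 of 13 held at least 1 and 8 at least 2. The core was therefore present in most windows of both kinds. A match is a description of the letters, not a binding site.

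Reads were worked back from FPKM (fragment counts scaled to gene length and library depth). Summed over the genes of the expression table, they came to between 12778044 and 19008803 per library, 97.7% of the depth implied by the values. Tox4 itself was at 8.65 and 8.89 FPKM in Tox4 esiRNA libraries, against 16.7 and 17.5 FPKM in Luc esiRNA libraries, a 48.8% lower mean level (limma, log2 fold change −0.89, SE 0.05, adjusted p = 0.00228). All 9 markers of the primed epiblast averaged at least 1 FPKM, and their summed level was 1412 to 1447 FPKM in Tox4 esiRNA libraries and 1416 to 1436 in Luc esiRNA libraries. Pou5f1 held the largest part of this sum, at 583 and 613 FPKM with Tox4 esiRNA and 588 and 582 FPKM with Luc esiRNA. Otx2, Dnmt3b, Lin28a, Fgf5 and Pou3f1 were lower in both Tox4 esiRNA libraries than in both Luc esiRNA libraries, as were 26.7% of all genes tested. Their log2 fold changes ran from −0.15 to −0.04, and none was called. Zic2 lay above, and Pou5f1 and Nanog overlapped. Of the 9 markers, Sox2 was called higher, at 93.2 and 87.6 FPKM with Tox4 esiRNA, against 76.3 and 76.4 FPKM with Luc esiRNA (log2 fold change 0.24, adjusted p = 0.0355). Its adjusted p was 0.0653 without Tox4 replicate 1, 0.179 without Luc replicate 1 and 0.176 without Luc replicate 2, in a range of 0.000713 to 0.179 over 13 alternatives. Of 4 endothelial genes listed, 0 averaged 1 FPKM (summed level 0.882 to 1.14 FPKM with Tox4 esiRNA and 1.04 to 1.3 with Luc esiRNA), and fibroblast markers (3 of 7 reached it) summed to 10.4 to 12.3 FPKM with Tox4 esiRNA and 11.3 to 11.4 with Luc esiRNA. Naive stem cell markers (1 of 5) summed to 4.39 to 5.19 FPKM with Tox4 esiRNA and 5.43 to 5.73 with Luc esiRNA, and trophoblast markers (2 of 5) to 9.60 to 11.3 FPKM with Tox4 esiRNA and 10.6 to 12.8 with Luc esiRNA. Not every listed marker was in the expression table. It held 3 of 4 endothelial, 6 of 7 fibroblast, 2 of 5 naive, 3 of 5 trophoblast and 4 of 5 extraembryonic endoderm genes. The extraembryonic endoderm list (2 of 5) summed to 117 to 121 FPKM with Tox4 esiRNA and 148 to 151 with Luc esiRNA. Sparc, a secreted matrix glycoprotein, made up most of this sum, at 106 and 108 FPKM with Tox4 esiRNA and 134 and 137 FPKM with Luc esiRNA. It was called lower (limma, log2 fold change −0.34, adjusted p = 0.00881), though not under every alternative. Foxa2, of the same list, was lower without being called (log2 fold change −0.21, adjusted p = 0.107). The part of these markers in the results below was not tested.

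Of the 33 members, 32 averaged at least 1 FPKM and were tested. In the all-gene fit 16 were lower with Tox4 esiRNA at an adjusted p under 0.05 and 0 were higher, beside 2.62% of all 12403 genes tested called lower and 1.89% called higher. With no adjustment, 20 members were lower and 0 higher at p under 0.05, beside 11.5% of all genes lower and 10.0% higher. Limma-voom on the recovered reads called 17 lower and 0 higher, beside 5.87% and 5.97% of all genes. Of these 17, Ero1l and Mxi1 entered with reads known only up to an uncertain whole factor. The median log2 fold change of the 32 was −0.19 (range −0.79 to 0.10), beside −0.0034 over all genes tested. Both Tox4 esiRNA libraries lay below both Luc esiRNA libraries in 24 members, beside 26.7% of all genes, above them in 2, beside 25.3%, and the groups overlapped in 6. The members that fell had between 13.4% and 43.6% less FPKM, with a median of 22.3%. In bulk RNA, fewer cells making a transcript and less transcript per cell cannot be told apart.

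**Figure D1:**
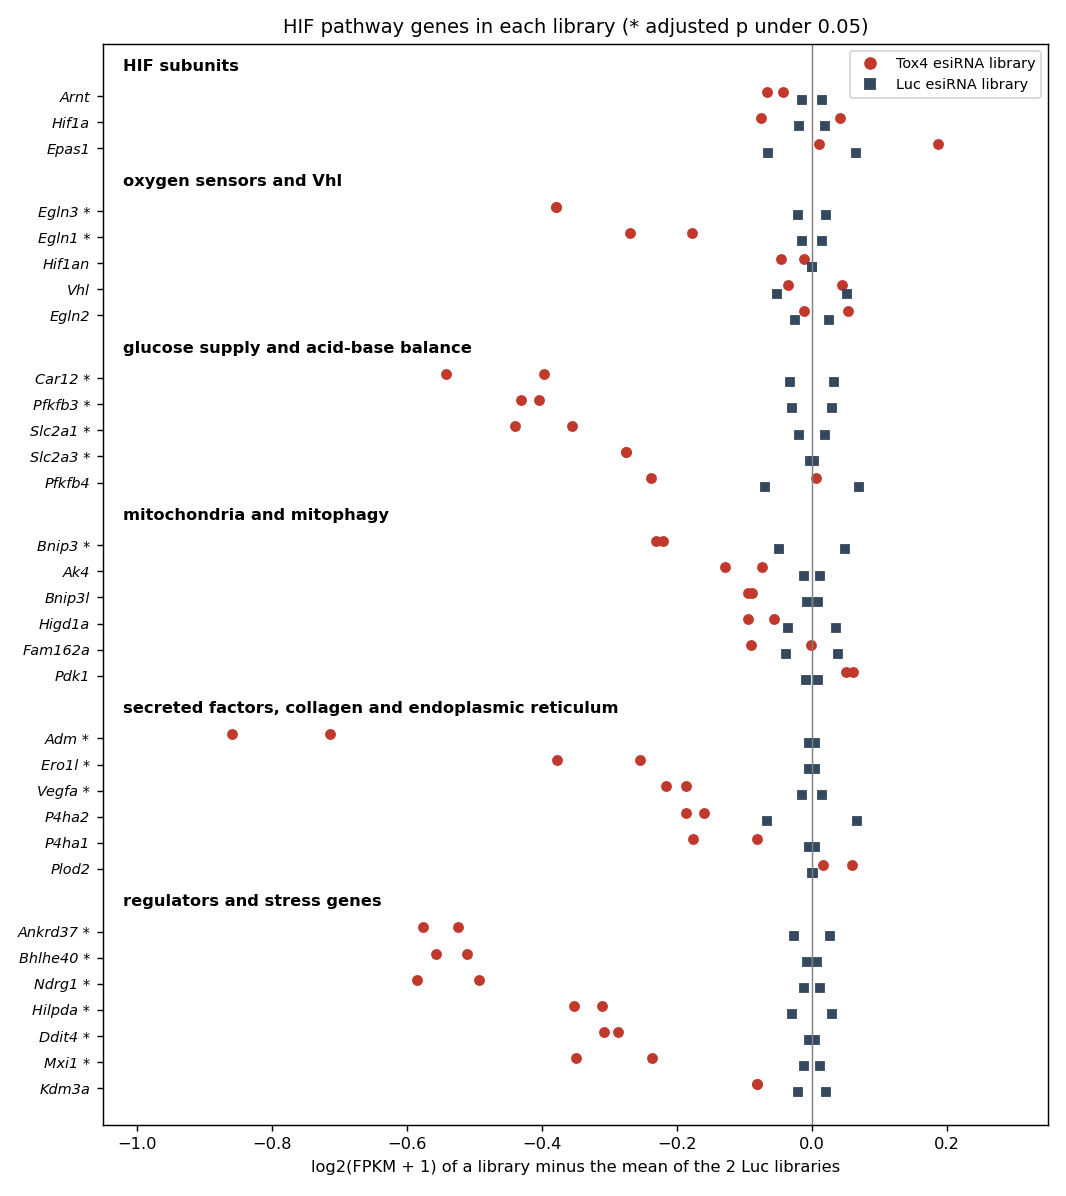
Level of each tested member in each library, as log2(FPKM + 1) minus the mean of both Luc esiRNA libraries, with members grouped by role; circles are Tox4 esiRNA libraries, squares are Luc esiRNA libraries, and a star marks an adjusted p under 0.05. The Tox4 esiRNA points lie below the Luc esiRNA points in 24 of the 32 members tested, beside 26.7% of all genes tested.

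None of the HIF subunits Hif1a, Epas1 and Arnt passed the threshold at the mRNA level. Hif1a (chromosome 12, 73901375 to 73947530, plus strand), the main oxygen-labile subunit, was at 45.3 and 41.7 FPKM in Tox4 esiRNA libraries, against 43.4 and 44.6 FPKM in Luc esiRNA libraries. The groups overlapped, and the log2 fold change of −0.02 had a 95% interval of −0.14 to 0.11 (adjusted p = 0.897). Epas1, the second alpha subunit, was at 3.0 and 2.54 FPKM with Tox4 esiRNA, against 2.68 and 2.36 FPKM with Luc esiRNA (log2 fold change 0.10, interval −0.16 to 0.36, adjusted p = 0.659). Hif3a, another alpha subunit, which is not among the 33 genes but on the list of HIF machinery below, was at 35.7 and 34.6 FPKM with Tox4 esiRNA and 33.8 and 35.4 FPKM with Luc esiRNA (log2 fold change 0.02, adjusted p = 0.815). Of the summed length-scaled FPKM of the 3 alpha subunits, Hif1a made up 53.9% and 52.9% in Tox4 esiRNA libraries and 54.3% and 54.2% in Luc esiRNA libraries, and most of the rest was Hif3a. Arnt, the constant partner, was at 18.5 and 18.2 FPKM with Tox4 esiRNA and 19.3 and 18.9 FPKM with Luc esiRNA; the groups did not overlap, but the fold change of −0.05 missed the threshold (interval −0.16 to 0.05, adjusted p = 0.532). Of Hif1a, Epas1 and Arnt, 0 passed the limma threshold, 0 at an unadjusted p under 0.05 and 0 in limma-voom.

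Among the oxygen sensors, Egln3 and Egln1 fell, and Egln2, Hif1an and Vhl did not pass the threshold. Egln3 (chromosome 12, 54178981 to 54203860, minus strand), the sensor with the highest level here, was at 109 and 109 FPKM in Tox4 esiRNA libraries, against 140 and 144 FPKM in Luc esiRNA libraries. Its mean was 109 ± 0.116 with Tox4 esiRNA and 142 ± 2.65 with Luc esiRNA (SD, n = 2 each), 23.3% lower, with a log2 fold change of −0.38 (SE 0.03, adjusted p = 0.00636). The gap between groups was larger than the gap between replicates. Egln1, the principal HIF hydroxylase, was at 66.2 and 70.6 FPKM with Tox4 esiRNA, against 80.8 and 79.2 FPKM with Luc esiRNA, 14.5% lower (log2 fold change −0.22, SE 0.04, adjusted p = 0.0469). This call sat just inside the threshold.

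Egln2 was at 29.8 and 31.2 FPKM with Tox4 esiRNA and 30.6 and 29.5 FPKM with Luc esiRNA (log2 fold change 0.02, interval −0.09 to 0.13, adjusted p = 0.849). The asparaginyl hydroxylase Hif1an was at 11.5 and 11.8 FPKM with Tox4 esiRNA and 11.9 and 11.9 FPKM with Luc esiRNA (adjusted p = 0.817). Vhl, the substrate receptor of the ubiquitin ligase, was at 16.6 and 17.6 FPKM with Tox4 esiRNA and 16.4 and 17.7 FPKM with Luc esiRNA (log2 fold change 0.0034, adjusted p = 0.980). Summed over the 3 prolyl hydroxylases, the level was 205 and 211 FPKM with Tox4 esiRNA and 252 and 253 FPKM with Luc esiRNA. Egln3 held 53.2% and 51.7% of that sum in Tox4 esiRNA libraries, against 55.8% and 57.0% in Luc esiRNA libraries, so its share was lower in both Tox4 esiRNA libraries. Without Luc replicate 1 the adjusted p of Egln3 was 0.0512, without Luc replicate 2 it was 0.0650, and it ran from 1.06e-06 to 0.0650 over 13 alternatives. For Egln1 it was 0.0855 without Tox4 replicate 1, 0.223 without Luc replicate 1 and 0.185 without Luc replicate 2, and ran from 0.000989 to 0.223.

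Of the genes of glucose supply and acid-base balance, 4 of 5 tested members fell, beside 2.62% of all genes tested, with a group median of −0.40. Slc2a1 (Glut1, chromosome 4, 119108711 to 119137983, plus strand), the widespread glucose transporter, was at 463 and 491 FPKM in Tox4 esiRNA libraries, against 620 and 637 FPKM in Luc esiRNA libraries. Its mean was 477 ± 19.9 with Tox4 esiRNA and 629 ± 12.3 with Luc esiRNA (SD, n = 2 each), 24.2% lower (log2 fold change −0.40, SE 0.04, adjusted p = 0.0116). It rested on 19915 and 18312 reads in Tox4 esiRNA libraries and 34410 and 27917 reads in Luc esiRNA libraries. Both transporters moved the same way: Slc2a3 (Glut3), a transporter with high glucose affinity, was at 380 and 380 FPKM with Tox4 esiRNA, against 461 and 459 FPKM with Luc esiRNA, 17.3% lower (log2 fold change −0.27, SE 0.03, adjusted p = 0.0141). Their summed level was 843 and 871 FPKM with Tox4 esiRNA, against 1081 and 1097 FPKM with Luc esiRNA.

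Pfkfb3, which makes the allosteric activator of phosphofructokinase, was at 15.2 and 15.5 FPKM with Tox4 esiRNA, against 20.4 and 21.3 FPKM with Luc esiRNA, 26.3% lower (log2 fold change −0.42, SE 0.05, adjusted p = 0.0127). Its relative Pfkfb4 was at 1.82 and 2.34 FPKM with Tox4 esiRNA and 2.17 and 2.49 FPKM with Luc esiRNA; these groups overlapped (log2 fold change −0.12, interval −0.42 to 0.19, adjusted p = 0.647). Car12, a membrane carbonic anhydrase, was at 6.14 and 5.46 FPKM with Tox4 esiRNA, against 8.19 and 8.62 FPKM with Luc esiRNA, 31.0% lower (log2 fold change −0.47, SE 0.07, adjusted p = 0.0302). The classic hypoxia marker Car9, another carbonic anhydrase, was barely present and not tested, at 0.285 and 0.328 FPKM with Tox4 esiRNA and 0.441 and 0.280 FPKM with Luc esiRNA. All 4 calls were lost without either Luc library. Without Luc replicate 1 the adjusted p-values were 0.0817 for Slc2a1, 0.136 for Slc2a3, 0.0691 for Pfkfb3 and 0.143 for Car12, and without Luc replicate 2 they were 0.0953, 0.118, 0.0935 and 0.174 in the same order, the highest of any alternative for Slc2a1, Pfkfb3 and Car12. Their lowest over the 13 alternatives, from limma-voom, were 6.91e-08, 3.20e-07, 7.84e-06 and 0.000220. Car12 also missed without Tox4 replicate 2 (0.0514).

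**Figure D2:**
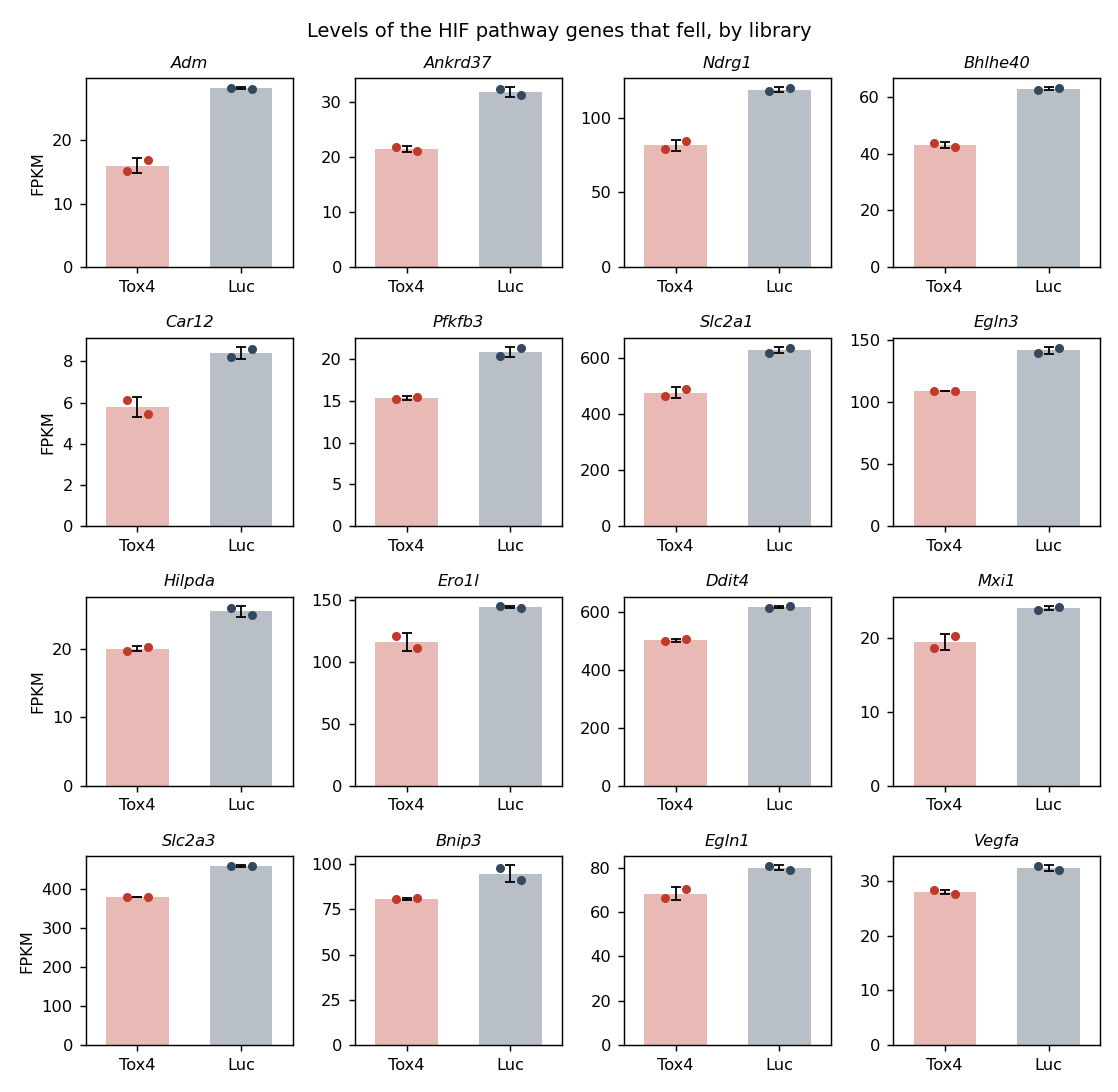
FPKM of the members that fell, as bars of the mean from 0 with the SD (n = 2) and the individual libraries as points, Tox4 esiRNA left of Luc esiRNA. In every panel the Tox4 esiRNA points lie below the Luc esiRNA points, from Adm, 43.6% lower, to Vegfa, 13.4% lower.

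The group of regulators and stress genes held the most calls, 6 of 7 lower, beside 2.62% of all genes tested. In all 7 both Tox4 esiRNA libraries lay under both Luc esiRNA libraries, beside 26.7% of all genes tested. Ankrd37 (chromosome 8, 45996902 to 46005707, minus strand), an ankyrin repeat protein gene, was at 21.8 and 21.0 FPKM in Tox4 esiRNA libraries, against 32.4 and 31.2 FPKM in Luc esiRNA libraries, 32.8% lower (log2 fold change −0.55, SE 0.04, adjusted p = 0.00412). Its GENCODE span reaches upstream of the RefSeq start used for the promoter window above, which ends at 46000100. Bhlhe40 (chromosome 6, 108660629 to 108666925, plus strand), a basic helix-loop-helix repressor that responds to oxygen and to the clock, was at 43.8 and 42.4 FPKM with Tox4 esiRNA, against 62.5 and 63.2 FPKM with Luc esiRNA, 31.5% lower (log2 fold change −0.54, SE 0.04, adjusted p = 0.00311). Ndrg1 (chromosome 15, 66929318 to 66969640, minus strand), a stress-responsive gene, was at 79.0 and 84.3 FPKM with Tox4 esiRNA, against 118 and 120 FPKM with Luc esiRNA, 31.3% lower (log2 fold change −0.54, SE 0.04, adjusted p = 0.00407). These genes shifted by almost the same proportion, and their calls held with each single library left out.

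Ddit4, an inhibitor of mTOR signalling, was at 499 and 506 FPKM with Tox4 esiRNA, against 616 and 620 FPKM with Luc esiRNA, 18.6% lower (log2 fold change −0.30, SE 0.03, adjusted p = 0.0134). Hilpda, a lipid droplet protein gene, was at 19.8 and 20.4 FPKM with Tox4 esiRNA, against 26.1 and 25.0 FPKM with Luc esiRNA, 21.3% lower (log2 fold change −0.33, SE 0.04, adjusted p = 0.0208). Mxi1, an antagonist of Myc, was at 18.7 and 20.3 FPKM with Tox4 esiRNA, against 23.9 and 24.3 FPKM with Luc esiRNA, 18.9% lower (log2 fold change −0.29, SE 0.05, adjusted p = 0.0415). In each of these genes the replicates lay closer to each other than to the other group. Kdm3a, a histone lysine demethylase, was at 35.7 and 35.7 FPKM with Tox4 esiRNA and 37.3 and 38.4 FPKM with Luc esiRNA, and did not pass (log2 fold change −0.08, SE 0.04, adjusted p = 0.275). Without Luc replicate 1 the adjusted p-values were 0.122 for Ddit4, 0.141 for Hilpda and 0.179 for Mxi1, and without Luc replicate 2 they were 0.119, 0.0957 and 0.196 in the same order. Mxi1 also missed without Tox4 replicate 1 (0.0750). Over the 13 alternatives the ranges were 1.85e-06 to 0.122 for Ddit4, 0.00555 to 0.141 for Hilpda and 0.0143 to 0.196 for Mxi1.

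The group of secreted factors, collagen and endoplasmic reticulum genes held the largest fall, with 3 of 6 lower past the threshold, beside 2.62% of all genes tested. Adm (chromosome 7, 110627661 to 110629820, plus strand), which encodes the vasodilator peptide adrenomedullin, was at 15.1 and 16.8 FPKM in Tox4 esiRNA libraries, against 28.3 and 28.1 FPKM in Luc esiRNA libraries. Its mean was 15.9 ± 1.20 with Tox4 esiRNA and 28.2 ± 0.129 with Luc esiRNA (SD, n = 2 each), 43.6% lower (log2 fold change −0.79, SE 0.06, interval −0.93 to −0.65, adjusted p = 0.00354). It rested on 279 and 269 reads in Tox4 esiRNA libraries and 676 and 530 in Luc esiRNA libraries. No other member fell by as large a share. Ero1l, the oxidase that drives disulfide formation in the endoplasmic reticulum, was at 121 and 111 FPKM with Tox4 esiRNA, against 145 and 144 FPKM with Luc esiRNA, 19.7% lower (log2 fold change −0.32, SE 0.05, adjusted p = 0.0270). Its reads were known only up to an uncertain whole factor, and its limma-voom adjusted p of 0.000110 rests on them.

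Vegfa, the main growth factor of blood vessels, was at 28.3 and 27.7 FPKM with Tox4 esiRNA, against 32.7 and 32.0 FPKM with Luc esiRNA. It was 13.4% lower and only just passed (log2 fold change −0.20, SE 0.04, interval −0.30 to −0.11, adjusted p = 0.0488). The collagen hydroxylases did not pass: P4ha1 was at 41.8 and 44.7 FPKM with Tox4 esiRNA and 47.5 and 47.2 FPKM with Luc esiRNA (adjusted p = 0.164), and P4ha2 at 20.9 and 21.3 FPKM with Tox4 esiRNA and 25.1 and 22.8 FPKM with Luc esiRNA (adjusted p = 0.142), which limma-voom called lower (adjusted p = 0.020, the lowest of 13 alternatives, which reached 0.513 without Luc replicate 1). Plod2, a collagen lysyl hydroxylase with the highest level of all members, ran the other way at 987 and 958 FPKM with Tox4 esiRNA and 948 and 947 FPKM with Luc esiRNA (log2 fold change 0.04, SE 0.04, adjusted p = 0.613). The most highly expressed member thus did not fall. Across the 32 tested members, Luc esiRNA level and log2 fold change had a Spearman rho of −0.21, given as a description over genes measured in the same libraries.

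The adjusted p of Vegfa was over 0.05 with any single library left out: 0.0767 without Tox4 replicate 1, 0.109 without Tox4 replicate 2, 0.250 without Luc replicate 1 and 0.195 without Luc replicate 2, with a range of 0.00541 to 0.250 over 13 alternatives. For Ero1l it was 0.145 without Luc replicate 1 and 0.136 without Luc replicate 2, in a range of 0.000110 to 0.145. Adm passed under all 13 alternatives (8.82e-07 to 0.0380).

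Among mitochondrial and mitophagy genes 1 of 6 was called lower, beside 2.62% of all genes tested, with a group median of −0.08. Bnip3, a mitophagy receptor, was at 80.5 and 81.1 FPKM with Tox4 esiRNA, against 98.0 and 91.5 FPKM with Luc esiRNA, 14.7% lower (log2 fold change −0.23, SE 0.04, adjusted p = 0.0455). Its relative Bnip3l was at 65.0 and 65.3 FPKM with Tox4 esiRNA and 69.9 and 69.1 FPKM with Luc esiRNA, which did not overlap but missed the threshold (log2 fold change −0.09, SE 0.03, adjusted p = 0.184). Pdk1, which restrains pyruvate dehydrogenase, was slightly higher, at 24.3 and 24.1 FPKM with Tox4 esiRNA and 23.1 and 23.4 FPKM with Luc esiRNA, without passing (log2 fold change 0.06, SE 0.04, adjusted p = 0.455). Higd1a, Ak4 and Fam162a, which encode mitochondrial proteins, had log2 fold changes between −0.10 and −0.05 with adjusted p-values of 0.363, 0.207 and 0.628. The call of Bnip3 was lost with any single library left out: its adjusted p was 0.0830 without Tox4 replicate 1, 0.0749 without Tox4 replicate 2, 0.211 without Luc replicate 1 and 0.0984 without Luc replicate 2, within 0.00188 to 0.211 over 13 alternatives.

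**Figure D3:**
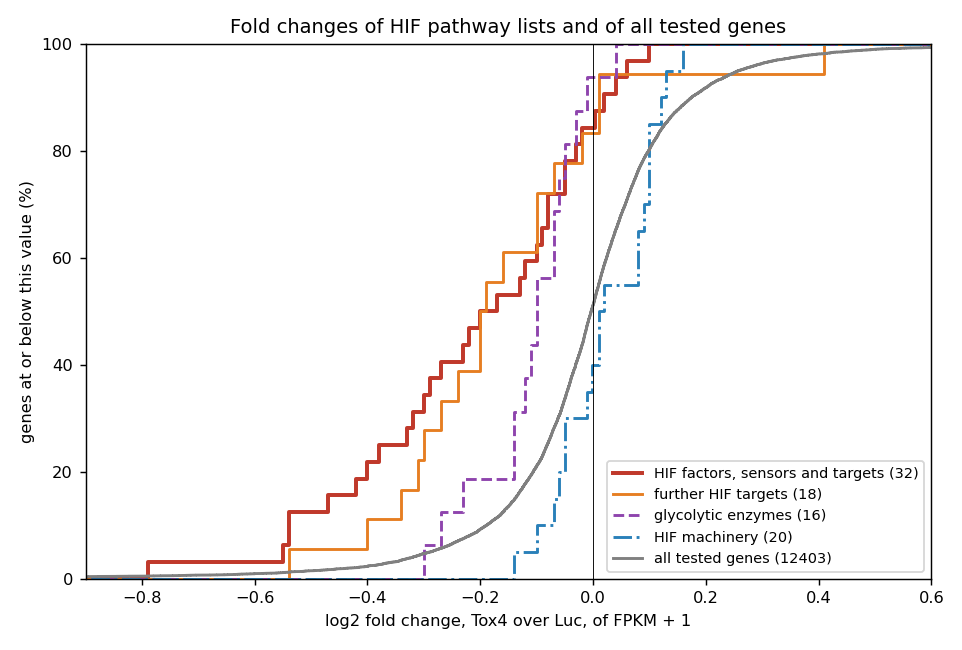
Cumulative share of genes against the log2 fold change of Tox4 esiRNA over Luc esiRNA, for the 32 tested members, for the 18 further HIF targets, 16 glycolytic enzymes and 20 HIF machinery genes described next, and for all 12403 genes tested, with the horizontal axis cropped. The medians are −0.19 for the members, −0.20 for the further targets, −0.10 for the glycolytic enzymes, 0.02 for the machinery and −0.0034 for all genes.

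Other genes of the pathway, on lists drawn up from general knowledge with earlier results known, are given beside the members. Of 20 tested genes of the HIF machinery (cofactors, ubiquitin ligase parts, chaperones and the further subunits Hif3a and Arnt2), 0 passed in either direction in limma, 2 were lower and 1 higher at an unadjusted p under 0.05, and limma-voom called 1 lower, Jmjd6. Counts this low lie near the shares of all genes given above. The widest were Jmjd6, an oxygen-dependent dioxygenase (log2 fold change −0.14, adjusted p = 0.185), and Siah1b, a ubiquitin ligase (0.16, adjusted p = 0.190). Their median was 0.02. Of 18 tested further HIF targets, 7 (38.9%) were lower and 0 higher, beside 2.62% and 1.89% of all genes tested. The median of these targets was −0.20. At an unadjusted p under 0.05, 9 were lower and 1 higher (11.5% and 10.0% of all genes), and limma-voom called 9 lower and 0 higher (5.87% and 5.97% of all genes).

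Gbe1, the glycogen branching enzyme, was at 21.9 and 21.2 FPKM with Tox4 esiRNA, against 28.5 and 28.8 FPKM with Luc esiRNA (log2 fold change −0.40, adjusted p = 0.0110). Hmox1, which degrades heme, was at 42.5 and 42.0 FPKM with Tox4 esiRNA, against 55.9 and 51.9 FPKM with Luc esiRNA (−0.34, adjusted p = 0.0199). Their fold changes lie within the range of the members that fell. Stc2, a secreted glycoprotein, was at 41.0 and 40.0 FPKM with Tox4 esiRNA, against 51.6 and 49.3 FPKM with Luc esiRNA (−0.31, adjusted p = 0.0181). The glycolytic enzymes gave a different count by tool. Limma called 1 of 16 lower (6.25%), beside 2.62% of all genes tested. It was Aldoc, at 94.9 and 95.4 FPKM with Tox4 esiRNA, against 115 and 114 FPKM with Luc esiRNA (−0.27, adjusted p = 0.0146). Limma-voom called 7 of the 16 lower, beside 5.87% of all genes. At an unadjusted p under 0.05, 8 were lower, beside 11.5% of all genes, and 0 higher, and the median of the 16 was −0.10. These calls depended on the prior and on the Luc esiRNA libraries. With no intensity trend and all libraries kept, 0 of the further targets and 0 of the glycolytic enzymes passed. Without Luc replicate 1, 0 of the further targets and 0 of the glycolytic enzymes passed in limma, and without Luc replicate 2 again 0 and 0. The adjusted p-values were then 0.0749 and 0.0816 for Gbe1, 0.106 and 0.0607 for Hmox1, 0.122 and 0.0783 for Stc2, and 0.111 and 0.0980 for Aldoc, without Luc replicate 1 and 2 in that order. Their lowest over 13 alternatives were 3.29e-05, 0.000136, 3.47e-05 and 6.08e-05.

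Strand use in counting is not given in the sources used here, so reads of genes on opposite strands could be assigned to either. Exons of 6 members that fell overlap a gene on the other strand in the GENCODE annotation of GRCm38. Such overlap was not particular to them. Among members that did not pass the threshold, it covers 330 bp of Hif1a, 11 bp of Egln2, 683 bp of Higd1a, 346 bp of Plod2 and 168 bp of Fam162a. For Ankrd37 the overlap covers 406 bp, with Lrp2bp and Ufsp2. Ufsp2 was at 20.7 and 22.4 FPKM with Tox4 esiRNA and 24.7 and 22.0 FPKM with Luc esiRNA, and neither neighbour passed the threshold. The overlap covers 118 bp of Bhlhe40, with 0610040F04Rik. That gene was at 0.518 and 0.597 FPKM with Tox4 esiRNA, against 1.2 and 2.04 FPKM with Luc esiRNA, 65.6% lower without passing the threshold (log2 fold change −0.73, SE 0.18, adjusted p = 0.0859), and its part in the Bhlhe40 value was not tested. The overlap covers 504 bp of Bnip3, 194 bp of Mxi1, 556 bp of Ndrg1 and 105 bp of Slc2a1. The targeted gene Tox4 also overlaps other genes, over 1128 bp.

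**Figure D4:**
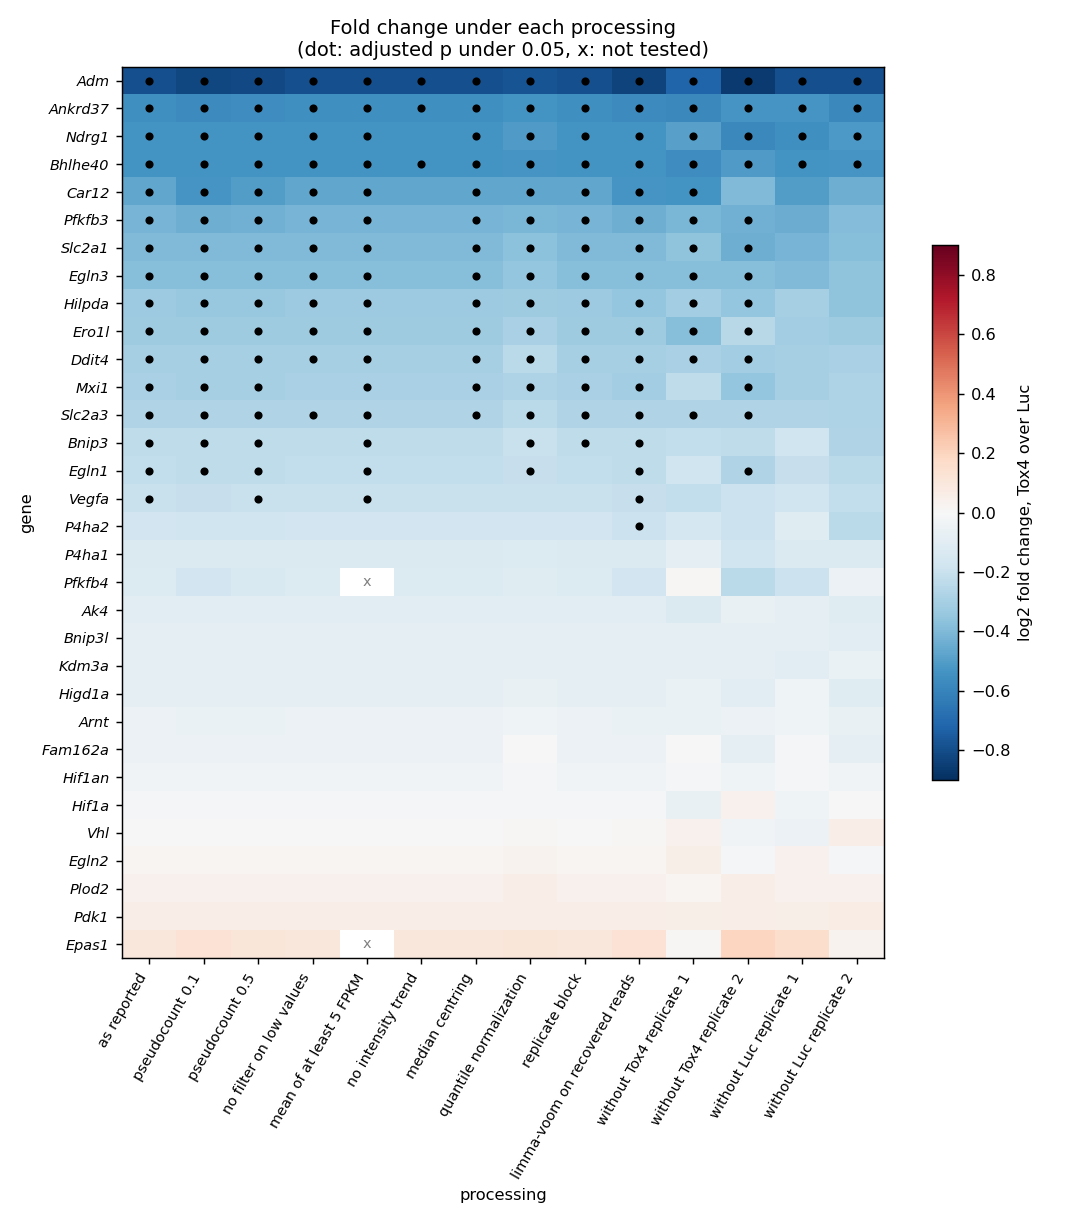
Heat map of the log2 fold change (Tox4 esiRNA over Luc esiRNA) of each member under the reported fit and 13 alternatives, with dots where the adjusted p is under 0.05 and crosses where a member was not tested. Adm, Ankrd37 and Bhlhe40 carry dots in every column, and 4 members carry dots without Luc replicate 1 or without Luc replicate 2.

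Across the settings, 16 members fell in the reported fit, 12 without Tox4 replicate 1, 13 without Tox4 replicate 2, 4 without Luc replicate 1 and 4 without Luc replicate 2. The 4 that passed with each library left out were Adm, Ankrd37, Bhlhe40 and Ndrg1. With no intensity trend, 3 passed, since Ndrg1 missed at an adjusted p of 0.0511 (range over alternatives 3.70e-08 to 0.0511). The calls nearest the threshold also moved with scaling and filter. Under median centring Egln1 (0.0553), Bnip3 (0.0502) and Vegfa (0.0502) missed, and with no filter on low values so did Egln1 (0.0699), Bnip3 (0.0692), Vegfa (0.0694) and Mxi1 (0.0631). Vegfa missed at a pseudocount of 0.1 (0.0505) and under quantile normalization (0.0536) as well. The heat map of members by setting shows the same sign for each of the 16 in all 13 alternatives, with the smallest fitted size at −0.18.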

How the data were processed

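Poly(A) RNA of 4 libraries was sequenced. The authors deposited FPKM values per gene, and the 4 per-library files held the same values as the table of the series. Per the submitters' processing notes, CASAVA 1.8, STAR 2.3.0e and GRCm38.p1 were used; how reads were counted, with which annotation and whether by strand, is not given in the sources used here.

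Genes averaging 1 FPKM or more were fitted with limma 3.58.1 in R 4.3.3 on log2(FPKM + 1), which understates changes of low genes, with no covariate and an intensity trend in the prior variance (2 residual and 4.01 prior degrees of freedom). Tests were two-sided, with Benjamini-Hochberg adjustment over all 12403 genes and a threshold of 0.05. Whole reads were worked back from the FPKM steps, with gene lengths taken as whole to within 0.02 bp. The step looked for whole numbers, and all 15126 genes with a value above 0 passed it. Passing therefore does not test whether the reads are right. They totalled 14739221 and 12778044 in Tox4 esiRNA libraries and 19008803 and 14998194 in Luc esiRNA libraries, and entered limma-voom as an alternative. Members had 94 to 76494 reads per library. For 4 members none are given because the factor was uncertain. Of these, Epas1, Ero1l and Mxi1 were tested, and their uncertain reads still entered limma-voom. Replicates differed by more than sampling noise (chi-square per degree of freedom 1.94 for Tox4 esiRNA and 1.63 for Luc esiRNA). Recovery and fit were also run on data simulated from the recovered reads. Such data cannot show whether those reads are right.

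The members and lists were chosen with earlier results of these data known. Values per library are given for members past the threshold, HIF subunits, sensors, Vhl, and the largest rise and fall of each role group; of other lists, up to 4 genes past the threshold by size, of which 1 is not reported here; P4ha1, P4ha2, Bnip3l and Car9 were added after their values were seen. Gene coordinates are from GENCODE on GRCm38, which holds 98.7% of identifiers. Promoter windows follow RefSeq starts, which can differ from those of GENCODE.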

Additional observations from a re-analysis of the deposited data

How the results depend on the processing

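In the reported fit 559 genes passed, 325 lower and 234 higher. The count was 348 (202 lower, 146 higher) with no filter on low values, 841 (365 higher) with a mean of at least 5 FPKM, 78 (45 lower, 33 higher) with no intensity trend, and 1468 (728 lower, 740 higher) in limma-voom on recovered reads. With each library left out it ran from 61 to 437 (34 to 296 lower, 27 to 176 higher), the lone library being assumed to vary like the others; it was 61 without Luc replicate 1 and 63 without Luc replicate 2. Of 16 members past the threshold, 3 remained with no intensity trend and 4 to 13 with a library left out, 4 of them without Luc replicate 1 and 4 without Luc replicate 2; other alternatives gave 12 to 17. No member was higher past the threshold in limma under any of the 13 alternatives, limma-voom included. The median of the members ran from −0.23 to −0.17 with a library left out and was −0.23 without Luc replicate 2; the cause was not tested. Small changes reversed with a library left out: Hif1a ran from −0.07 to 0.04, above 0 without Tox4 replicate 2 (0.04) and Luc replicate 2 (0.0038), Vhl from −0.05 to 0.06, below 0 without Tox4 replicate 2 (−0.03) and Luc replicate 1 (−0.05), Egln2 from −0.01 to 0.05, below 0 without Tox4 replicate 2 and Luc replicate 2 (−0.01 in each), and Pfkfb4 from −0.24 to 0.01, above 0 without Tox4 replicate 1 (0.01). Over member results and alternatives, 351 values kept direction and side of the threshold, 55 no longer passed and 1 newly passed. With the replicate number as a block, 14 members and 556 genes passed, Egln1 and Vegfa not among them. Deviations of same-numbered libraries correlated at −0.04, so the values show no shared shift. So few libraries cannot settle whether same-numbered ones were handled together, and the labels do not say. With 2 libraries a group, the spread is estimated mainly from other genes of like level.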
